A study of Solanum lycopersicum x Solanum pennellii and Solanum lycopersicum with 17 samples.

Results

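IL-1_4 is a tomato introgression line, and its carpels are described here against those of M82. Such a line is the cultivar M82 with a known stretch of a chromosome replaced by that of Solanum pennellii, a wild species, and the first number of its name gives that chromosome. RNA was taken from carpels 7 days after pollination and hybridised to an Affymetrix tomato array, 1 sample per array; per the labels, all plants were greenhouse-grown and treated in the same way. The 3 IL-1_4 arrays were compared with 6 arrays of M82, which the sample titles call a seed control and the line label calls parental. The series holds 17 arrays, and the 4 arrays of IL-1_1 and 4 of IL-2_3, introgression lines of chromosomes 1 and 2, served to ask whether a change in IL-1_4 also set it apart from lines other than M82. Although the design text speaks of hybrids, the sources used here do not settle whether the sampled plants carried the segment on a single chromosome copy or on both. They also do not say that replicates were separate plants, so p-values measure the spread between these samples, which may be technical.

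All 10101 probe sets other than array controls were measured in every sample. A probe set is a group of short probes that reports 1 transcript, and its level is given on the log2 scale. The annotation of 2007 gives a gene symbol for 909 of the probe sets, so most of those that changed are named here by their identifier only. Their positions on the chromosomes were not analysed here, and which of them lie within the introgressed segment is not stated.

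A week after pollination the tomato carpel is an ovary turning into a fruit: its wall cells divide and then expand, and the ovules become seeds. MADS-box factors of the AGAMOUS group set carpel and ovule identity, and TDR4, a relative of FRUITFULL, belongs to the fruit programme. Hormones made in the growing ovary, among them auxin and gibberellin, drive fruit set, while ethylene and jasmonate act in stress, wounding and later ripening. In a line with a wild segment, transcripts can differ because the wild allele is expressed at another level or because genes elsewhere respond to it. An array made from cultivated sequence adds a limit: weaker binding of a wild transcript to the probes and less of that transcript cannot be told apart. In these bulk samples, fewer cells of a type and less RNA per cell cannot be told apart either.

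Carpel and young fruit markers were high in both groups. TPRP-F1, a proline-rich protein of young fruit, averaged 14.40 in IL-1_4 and 14.42 in M82, and the fruit transcript 2A11 averaged 14.08 and 13.94 in the same order. The identity genes AG1 (12.02 in IL-1_4, 11.96 in M82), TAGL1 (10.94 and 10.96) and AGL11 (11.23 and 11.35) were also well above the median array level of about 9.99. The style marker Stig1 (4.19 in both) and the pollen receptor kinases PRK1 (4.75 in IL-1_4, 4.57 in M82), PRK2 (3.97 in both) and PRK3 (3.97 and 3.88) lay near the lowest levels on the arrays, which began at 3.31. LAT61, listed with the pollen genes, was high in both groups (12.32 in IL-1_4, 12.35 in M82). The log2 of the summed signal of all 8 pollen probe sets was 14.05 to 14.18 in IL-1_4 and 14.03 to 14.32 in M82. LAT61 alone does not reach that sum, so the pollen list was not low apart from LAT61. TDR6, a MADS-box gene of the petal and stamen group, was also high in both (12.74 and 12.63). No other gene of that marker list was found by symbol, and most probe sets have none.

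The arrays of IL-1_4 were more alike than those of M82. Correlations between IL-1_4 arrays were 0.994 to 0.996, against 0.950 to 0.996 between M82 arrays, where M82 replicate 1 stood apart (0.950 to 0.981 with the other M82 arrays, which correlated at 0.970 or more among themselves). The main axis of variation within groups was found from the M82, IL-1_1 and IL-2_3 arrays only. Along it, IL-1_4 arrays scored between -16.96 and -12.31 and M82 arrays between -36.42 and 42.56. As the axis was chosen for spread in those groups, the narrower IL-1_4 range is partly built in and does not show that its arrays were more alike. The SD over IL-1_4 arrays exceeded that over M82 arrays in 16.1% of all probe sets. The difference between 3-prime and 5-prime control probe sets, a measure of RNA integrity, was 0.397 to 0.715 in IL-1_4 and 0.324 to 0.865 in M82.

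IL-1_4 carpels differed from M82 at few probe sets, and mostly by lower levels. Of 10101 probe sets, 65 (0.644%) were called with limma at a false discovery rate of 0.05. They were 52 lower (0.515%) and 13 higher (0.129%) in IL-1_4. At an unadjusted p under 0.05 there were 356 (3.52%). That share is below the 0.05 expected where nothing differs, so the count shows no further differences. All 65 called probe sets had IL-1_4 arrays entirely outside the range of the M82 arrays, as did 262 (2.59%) of all probe sets, 132 above (1.31%) and 130 below (1.29%). The falls were larger than the rises at the extreme: 11 probe sets were lower by more than 8-fold in array values and 0 were higher by that much, while 14 of the lower and 5 of the higher ones changed by less than 2-fold. The median size was 1.59 for the falls and 1.37 for the rises on the log2 scale, and the smallest called change was -0.33 (Les.5390.1.S1_at).

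The levels of the called probe sets follow in part from their choice, since a called fall favours a high M82 level and a called rise a low one. With that limit, most of the transcripts that fell were well expressed in M82. The 52 lower probe sets had a median level of 8.68 in IL-1_4 and 11.02 in M82, where the median over all probe sets was 9.99. In IL-1_4, 19 of them lay among the dimmest 25% of probe sets (levels under 7.88), against 7 in M82. The 13 higher probe sets had a median level of 8.72 in IL-1_4 and 7.35 in M82, and 4 of them lay in the dimmest 25% in IL-1_4, against 8 in M82. The values carry no detection calls, so a level in that range is not shown to be a measured transcript. Where 1 group lies there, the log2 change of a single probe set is given as the difference of the array values, and no fold is drawn from it. The fold counts above include such probe sets and are likewise differences of array values.

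**Figure D1:**
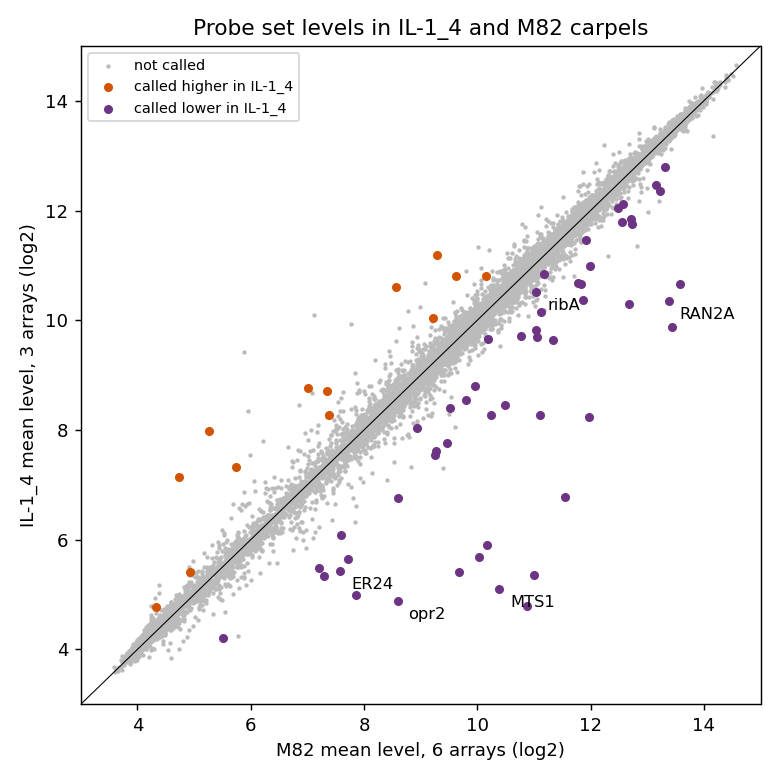
Mean level of each of 10101 probe sets in M82 (x axis, 6 arrays, log2) and in IL-1_4 (y axis, 3 arrays, log2), with the 65 called probe sets in colour and the line of equal level. The 52 called lower in IL-1_4 spread far below the line, by up to 6.09, and the 13 called higher reach 2.71 above it.

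Of the 909 probe sets with a symbol, 5 were called (0.55%, against 0.644% of all probe sets). All 5 were lower in IL-1_4, and 0 (0%) were higher. Over all probe sets 0.515% were lower and 0.129% higher, so 0 rises is not a result about genes with a symbol. They belong to terpene synthesis, the oxophytodienoate reductases, nuclear transport, transcriptional coactivation and riboflavin synthesis.

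MTS1 encodes a monoterpene synthase, known in tomato for making linalool in glandular hairs. Its levels were 5.05, 5.39 and 4.88 in the IL-1_4 arrays, against a lowest of 9.83, a median of 10.48 and a highest of 10.92 in M82. The highest IL-1_4 array was thus far below the lowest M82 array. The log2 change was -5.28 ± 0.27 (SE, limma, adjusted p = 4e-09, 95% interval -5.85 to -4.71). The gene fell to the dimmest 25% in IL-1_4, whereas it ranked above 57.1% of probe sets in M82. IL-1_4 was also lower than the other lines, with a log2 difference of -4.56 from IL-1_1 (adjusted p = 2.99e-08) and of -5.78 from IL-2_3 (1.76e-09), both with limma.

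The gene opr2 encodes a 12-oxophytodienoate reductase, an enzyme of the family that reduces oxylipins, of which OPR3 is the member that serves jasmonate synthesis. It read 4.99, 4.75 and 4.92 in IL-1_4, against 8.38 to 8.82 in M82 with a median of 8.59. No IL-1_4 array came near an M82 array. The change was -3.71 ± 0.14 (limma, adjusted p = 7.53e-11, interval -4.0 to -3.42), and the IL-1_4 level lay in the dimmest 25%. The other reductases showed no such change: OPR1 averaged 10.28 in IL-1_4 and 10.51 in M82 (change -0.23, interval -1.04 to 0.59), and OPR3 averaged 11.77 and 11.71 (0.06, interval -0.22 to 0.33). Enzymes of the same oxylipin pathway were not called either. AOS, which makes the first allene oxide, changed by 0.02 (interval -0.70 to 0.74), and AOC, the cyclase after it, by 0.10 (-0.39 to 0.60). The lipoxygenases loxC (-0.07), loxD (0.56), LOXB (-0.05), LOX1.1 (0.28) and TomloxE (-0.29) and the hydroperoxide lyase HPL (-0.32) likewise missed the threshold.

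RAN2A encodes a Ran GTPase, which drives the passage of proteins and RNA through nuclear pores. It was one of the brightest probe sets in M82, above 96.6% of the others, with a lowest level of 13.13, a median of 13.43 and a highest of 13.56. In IL-1_4 it read 10.28, 10.51 and 10.28, still above 56.3% of probe sets. The change was -3.03 ± 0.12 (limma, adjusted p = 1.34e-10, interval -3.28 to -2.78), 8.18-fold lower in IL-1_4. Its close relatives kept their levels within narrow bounds: RAN1 averaged 13.43 in IL-1_4 and 13.39 in M82 (change 0.04, interval -0.10 to 0.18), and RAN2B averaged 12.90 and 13.02 (-0.12, interval -0.37 to 0.14). RAN2A was also lower in IL-1_1 than in M82, by far less (-0.35, limma, adjusted p = 0.0468), and IL-1_4 was lower than IL-1_1 itself (-2.68, adjusted p = 9.9e-10). RanBP1, the Ran-binding protein, changed by 0.11 (-0.02 to 0.23). The Ran proteins are near-identical, and how far their probe sets share signal was not tested.

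ER24 encodes a transcriptional coactivator first found among ethylene-responsive tomato transcripts. It read 5.17, 5.82 and 5.32 in IL-1_4, against 7.11 to 8.07 in M82 with a median of 7.61, and the groups did not overlap. The change was -2.15 ± 0.23 (limma, adjusted p = 3.62e-05). Both levels lie in the dimmest 25% of the arrays. The other transcripts of the ER series found by symbol were not called, and they encode diverse proteins. ER5 changed by 0.76 (interval -1.52 to 3.03), ER1 by -0.44 (-1.93 to 1.06) and ER49 by 0.24 (0.01 to 0.47).

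The gene ribA, of riboflavin synthesis, changed least of the 5. It read 10.68, 10.61 and 10.26 in IL-1_4, against 10.82 to 11.24 in M82, so that its highest IL-1_4 array lay just under the lowest M82 array. The change was -0.53 ± 0.11 (limma, adjusted p = 0.0385). The call was lost in 17 of 26 alternative settings, with adjusted p up to 0.45. IL-1_4 was lower than IL-1_1 (log2 difference -0.44, adjusted p = 0.0228), while the difference from IL-2_3 (-0.48) had an adjusted p of 0.0631.

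**Figure D2:**
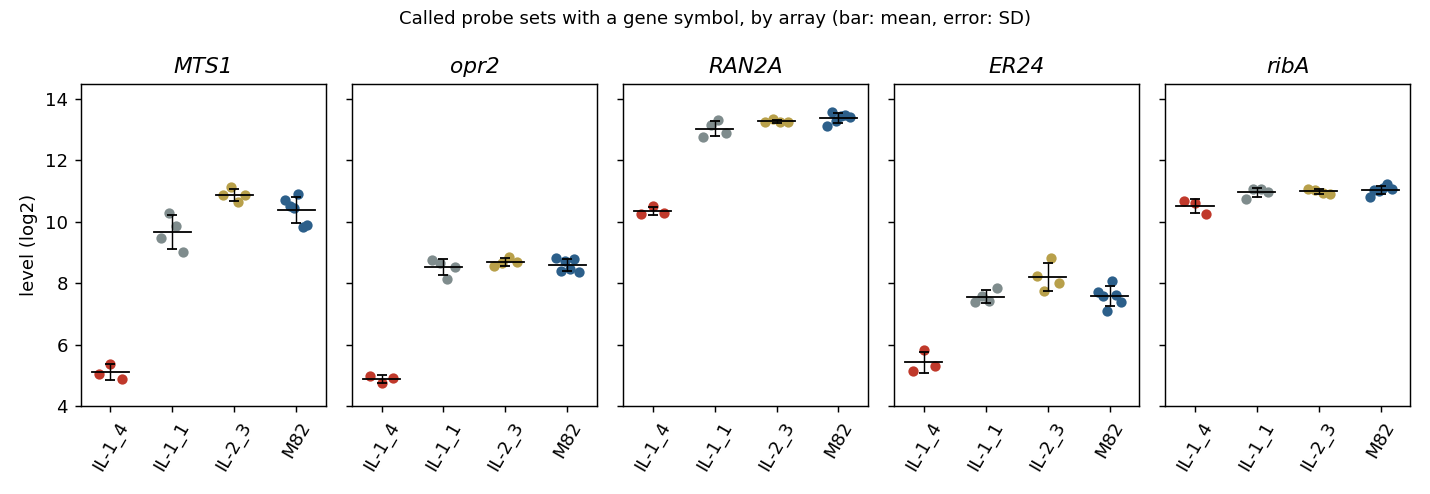
Level (log2) of the 5 called probe sets with a symbol in each array of IL-1_4 (n = 3), IL-1_1 (n = 4), IL-2_3 (n = 4) and M82 (n = 6), with bars at the group mean and error bars of 1 SD. For MTS1, opr2, RAN2A and ER24 every IL-1_4 array is below every array of the other groups, and the IL-1_4 arrays for ribA (10.26 to 10.68) sit close under the other groups.

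The largest falls were in probe sets without a symbol. Les.457.2.A1_at read 4.68, 5.10 and 4.56 in IL-1_4, against 9.95 to 11.28 in M82 with a median of 11.10. The change in array values was -6.09 ± 0.31 (limma, adjusted p = 3.94e-09). Les.2253.2.A1_at read 5.09, 5.74 and 5.24 in IL-1_4, against 10.51 to 11.35 in M82 (-5.64 ± 0.19, limma, adjusted p = 3.01e-11). Both passed from the upper part of the array to its dim end, ranking above 8.1% and 11.9% of probe sets in IL-1_4 and above 65.6% and 67.9% in M82.

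Les.2725.1.A1_at read 6.62, 7.23 and 6.47 in IL-1_4, against 11.13 to 12.07 in M82 (change -4.77 ± 0.22). Les.3288.1.A1_at read 5.74, 5.73 and 5.57, against 8.95 to 10.99 in M82 (-4.35 ± 0.34), the widest spread among M82 arrays of the 10 largest falls. Les.1544.1.A1_at read 5.70, 6.0 and 5.99, against 9.70 to 10.59 in M82 (-4.28 ± 0.23). In all 3 the highest IL-1_4 array lay well under the lowest M82 array. Les.2585.1.A1_at was the most even, with 5.37, 5.41 and 5.44 in IL-1_4, against 9.42 to 9.98 in M82. Its change of -4.26 ± 0.12 had the smallest adjusted p of the comparison (limma, 4.24e-12). These 4 probe sets also ended in the dimmest 25% in IL-1_4.

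LesAffx.12680.1.S1_at and LesAffx.344.2.S1_at fell but stayed above the dimmest 25%, the first only just. They ranked above 27.8% and 48.1% of probe sets in IL-1_4. LesAffx.12680.1.S1_at read 8.13, 8.55 and 8.05 in IL-1_4, against 11.68 to 12.18 in M82 (-3.73 ± 0.12, limma, adjusted p = 1.26e-11). LesAffx.344.2.S1_at read 9.34, 10.54 and 9.76 in IL-1_4, against 13.14 to 13.68 in M82 (-3.55 ± 0.20, limma, adjusted p = 1.67e-08). Among the 10 largest falls the IL-1_4 arrays differed most from each other here (SD 0.61, against 0.23 in M82), and all stayed under every M82 array. Over the 65 called probe sets, the SD in IL-1_4 was above that in M82 in 26.

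The 6 largest of the 13 rises follow, and the other 7 were between 0.44 and 1.37 on the log2 scale. LesAffx.69324.1.S1_at read 8.01, 8.17 and 7.75 in IL-1_4, against 4.85 to 5.79 in M82 (2.71 ± 0.21, limma, adjusted p = 8.07e-07). Les.4902.1.A1_at read 7.19, 6.91 and 7.30 in IL-1_4, against 4.47 to 5.03 in M82 (2.39 ± 0.21, limma, adjusted p = 4e-06). The M82 levels of both lie in the dimmest 25% of probe sets, as does the IL-1_4 level of Les.4902.1.A1_at. LesAffx.18597.1.S1_at read 11.22, 11.14 and 11.21 in IL-1_4, against 8.98 to 9.54 in M82 (1.90 ± 0.17, limma, adjusted p = 4.48e-06). The IL-1_4 arrays of the last were nearly equal (SD 0.045). LesAffx.51285.1.S1_at read 7.75, 6.96 and 7.25, against 5.41 to 6.39 in M82 (1.58 ± 0.21, limma, adjusted p = 0.000485), and here the lowest IL-1_4 array was close above the highest M82 array. Its levels in both groups lie in the dimmest 25%.

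Les.5957.1.S1_at and Les.5024.1.S1_at also had large rises, with calls near the threshold. Les.5957.1.S1_at read 10.70, 10.46 and 10.65 in IL-1_4, against 7.83 to 9.33 in M82 (2.05 ± 0.42, limma, adjusted p = 0.0306), and IL-1_1 had a like level of 10.28 ± 0.45 (SD, n = 4). Les.5024.1.S1_at read 8.73, 8.81 and 8.77 in IL-1_4, against 6.44 to 7.74 in M82 (1.75 ± 0.37, limma, adjusted p = 0.0418). Its M82 mean lay in the dimmest 25% of probe sets, and IL-2_3 averaged 8.27 ± 0.17 (SD, n = 4). Neither probe set was shown to differ between IL-1_4 and the other lines (limma, adjusted p = 0.62 and 0.0602 against IL-1_1, 0.1 and 0.766 against IL-2_3). The first call was lost in 9 alternative settings and the second in 15. At the threshold itself, Les.2217.1.A1_at was just inside (adjusted p = 0.048) and Les.4732.1.S1_at just outside (0.0519).

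Most of the calls also set IL-1_4 apart from the other introgression lines. Against IL-1_1, 1776 probe sets differed in all (17.6%, 9.18% higher and 8.41% lower in IL-1_4), and against IL-2_3 there were 156 (1.54%, 0.822% higher and 0.723% lower). The count against IL-1_1 changed with the arrays used: it was 606 to 736 with any 1 IL-1_4 array left out and 2497 without M82 replicate 1. Of the 52 probe sets lower than in M82, 50 were lower than in IL-1_1 and 48 lower than in IL-2_3. Of the 13 higher ones, 10 were higher than in IL-1_1 and 10 higher than in IL-2_3. Together 56 of the 65 differed in the same direction from M82 and from both lines, 47 lower and 9 higher, where the 3 comparisons share the IL-1_4 arrays and are not independent. With 1 array left out, 47 to 59 of the 65 differed from both lines. MTS1, opr2, RAN2A and ER24 were among them, as were the other 8 probe sets of the 10 largest falls.

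Against IL-1_1 and IL-2_3, with the same IL-1_4 arrays, 17.6% and 1.54% of all probe sets were called. Not called against M82, 16 probe sets were nonetheless lower and 14 higher than in both lines, with no test against chance overlap. The glyoxysomal malate dehydrogenase gMDH was such a case, with 11.21, 11.12 and 11.13 in IL-1_4, against 11.53 to 11.72 in M82. Its groups did not overlap, with a change of -0.47 ± 0.11 (limma, adjusted p = 0.072), and it was lower than in IL-1_1 (difference -0.60, 0.00398) and than in IL-2_3 (-0.52, 0.0303). LOC543892 read 5.72, 6.62 and 6.37 in IL-1_4, against 6.81 to 7.69 in M82 (-0.97 ± 0.24, limma, adjusted p = 0.125). A second probe set of LOC543892 changed by -0.06 (interval -0.21 to 0.09), at levels of 4.25 in IL-1_4 and 4.31 in M82.

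**Figure D3:**
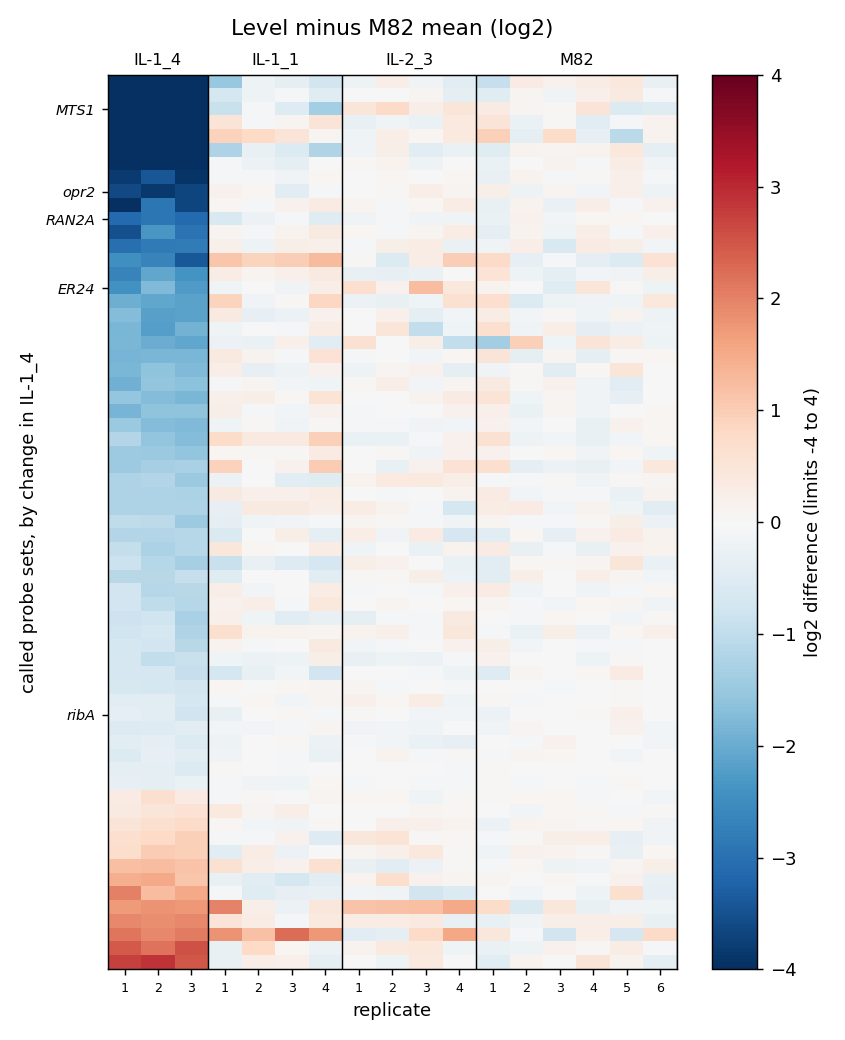
Level minus the M82 mean (log2, colour limits -4 to 4) of the 65 called probe sets (rows, from the largest fall to the largest rise in IL-1_4) in all 17 arrays, with the 5 symbols marked. The 3 IL-1_4 arrays differ from M82 throughout, whereas the IL-1_1 and IL-2_3 arrays stay near the M82 level in most rows.

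Probe sets whose identifiers share a number with a called one did not all move with it. The files do not say whether such probe sets report the same gene, its splice forms or its opposite strand. Among the 65, 22 share their number with others (21 numbers in all). Of the other probe sets of these numbers, 32 were not called, 17 of them with a change of the same sign. Each number was chosen for its called member, and 0.644% of all probe sets were called. The counts are thus no result about how partners behave. Les.457.1.S1_at changed by 0.31 (interval -0.40 to 1.02) where Les.457.2.A1_at fell by 6.09, and Les.2253.1.S1_at by 0.33 (0.02 to 0.64) where Les.2253.2.A1_at fell by 5.64. Les.636.1.S1_at changed by 0.01 (-0.17 to 0.19) where Les.636.2.S1_at fell by 2.87. LesAffx.69324.2.S1_at changed by 0.28 (-0.07 to 0.63) beside a rise of LesAffx.69324.1.S1_at by 2.71.

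Other pairs moved alike. Les.4902.1.S1_at was higher in IL-1_4 by 3.54 ± 0.79 (limma, adjusted p = 0.0623), beside the called rise of Les.4902.1.A1_at. Les.4149.2.S1_a_at changed by -1.56 ± 0.40 beside -1.30 ± 0.11 of the called Les.4149.3.S1_at. The number LesAffx.344 holds 10 probe sets. LesAffx.344.2.S1_at and LesAffx.344.5.S1_at (-2.93 ± 0.20) were called, and the other 8 changed by between -0.15 and 0.40.

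**Figure D4:**
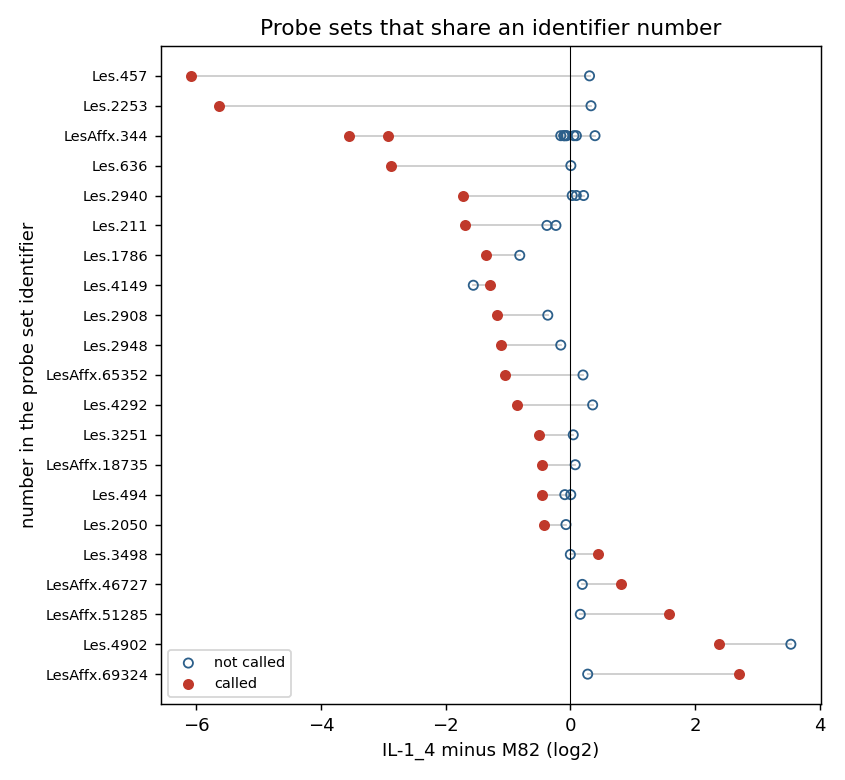
Log2 change, IL-1_4 minus M82 (x axis), of probe sets that share the number in their identifier, 1 row per number for the 21 numbers with a called member. Filled points are called and open points are not. In most rows the open points sit near 0 while the called one lies away from it, from -6.09 to 2.71. This is partly built in, as each row was chosen for its called member.

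The calls fell in few of the gene groups of the growing fruit. In 24 lists of gene symbols, 3 of 332 probe sets were called (0.904%, against 0.644% of all probe sets), 1 in each of 3 lists: ER24 in the ethylene list (50 probe sets), opr2 in the jasmonate and wound list (23) and RAN2A in the small GTPase list (10). Their median log2 changes were 0.00, -0.05 and 0.07, beside 0.02 over all probe sets. At the rate over all probe sets a list of this size would rarely hold a call, so lists with 0 calls are described by their values and are not shown to have stayed the same. MTS1 and ribA are in none of the lists.

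At that 0.644% background, no member was called among 11 probe sets of carpel and fruit identity (median change 0.06), 8 MADS-box (0.09), 6 young fruit (0.09), 13 cell cycle (0.11) and 8 photosynthesis probe sets (0.13). The cell cycle list had 10 of 13 members above 0, where 5629 of all 10101 probe sets were above 0. In it the replication clamp PCNA changed by 0.25 (interval -0.15 to 0.66) and the mitotic kinase CDKB1 by 0.30 (-0.21 to 0.81). The hormone lists were alike: 17 auxin probe sets had a median of -0.08, 7 gibberellin ones -0.16 and 8 of abscisic acid and water stress 0.03. Above 0 were 4 of the 17 auxin and 1 of the 7 gibberellin probe sets. That 1 was GA3ox1, which makes active gibberellin, at 0.79 (interval -0.28 to 1.86). The auxin-response repressor IAA16 had the highest auxin value, 0.13 (-0.09 to 0.36), and its second probe set changed by -0.05 (-0.30 to 0.21).

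Cell wall genes gave 52 probe sets and 0 calls, with a median of -0.01. Here and below, the share called over all probe sets was 0.644%, so 0 calls is not a result about a list. The expansin EXPA10 had the smallest p among them (0.49, interval 0.06 to 0.91, limma, unadjusted p = 0.0286). Sugar and starch genes (28 probe sets, median 0.04), antioxidant genes (23, 0.02), carotenoid and plastid isoprenoid genes (20, -0.00), pathogenesis-related genes (14, 0.03), ribosomal and translation genes (13, 0.08), phenylpropanoid and flavonoid genes (10, -0.15), heat shock genes (9, -0.00) and subtilisin-like proteases (7, -0.03) had 0 calls as well. Sucrose synthase sus3 changed by -0.20 (interval -0.63 to 0.24), the stress-induced TSI-1 by -0.66 (-1.19 to -0.13) and the protease sbt3 by -0.22 (-0.61 to 0.16). TSI-1 averaged 4.14 in IL-1_4 and 4.81 in M82, both at the dim end of the arrays (limma, adjusted p = 0.985). Markers of seed (3 probe sets, median 0.15), style and stigma (2, 0.05), pollen (8, 0.03) and petal and stamen (1, 0.11) had 0 calls. The log2 of their summed signal in IL-1_4 and M82 was 12.65 to 12.80 and 12.48 to 12.64 for seed, 5.04 to 5.37 and 5.03 to 5.28 for style and stigma, and 14.05 to 14.18 and 14.03 to 14.32 for pollen. The seed sum was higher in every IL-1_4 array than in any M82 array, and its part in the calls was not tested. For the subtilisin-like proteases the same sum was 13.10 to 13.20 in IL-1_4, below the 13.22 to 13.44 of M82, though no member was called.

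**Figure D5:**
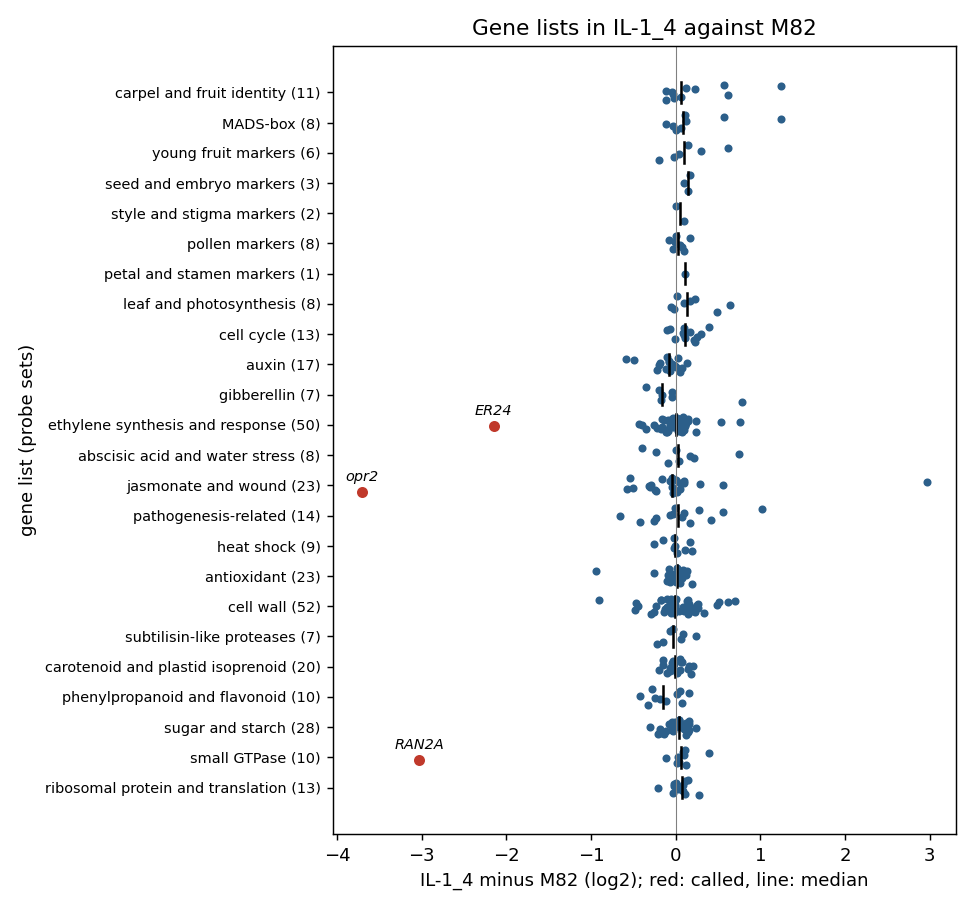
Log2 change, IL-1_4 minus M82 (x axis), of every probe set in 24 gene lists (rows, number of probe sets in brackets), with the list median as a black line and called probe sets in red. The medians lie between -0.16 and 0.15, and ER24, opr2 and RAN2A are the only red points.

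A few genes with symbols showed sizeable differences that the replicate spread did not bear out. The wound-induced glucosyltransferase twi1 read 9.97, 9.87 and 10.43 in IL-1_4, against a lowest of 5.75, a median of 6.23 and a highest of 10.08 in M82. M82 replicate 1 (10.08) was as high as IL-1_4, so the groups overlapped. The change was 2.97 ± 0.87 (limma, adjusted p = 0.353), the value without M82 replicate 1 was 3.56 (0.0225), and IL-1_1 was higher than M82 by a like amount (2.96, adjusted p = 0.0294, in a comparison with 12.2% of probe sets called). TDR4, the FRUITFULL relative, read 9.96, 9.58 and 10.04 in IL-1_4, against 8.04 to 9.67 in M82 with a median of 8.51. Its change was 1.25 ± 0.41 (limma, adjusted p = 0.622). Against the same M82 arrays TDR4 was higher by 1.31 in IL-1_1 (limma, adjusted p = 0.0356), where 12.2% of probe sets were called. It was higher by 1.38 in IL-2_3 but not called (limma, adjusted p = 0.181), where 0.901% of probe sets were called. No difference between the lines was shown for TDR4 (limma, adjusted p = 0.924 against IL-1_1, 0.952 against IL-2_3).

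LOC543955 ran the other way from IL-1_1. It read 12.25, 10.19 and 11.61 in IL-1_4, against 12.05 to 14.27 in M82 (-1.46 ± 0.50, limma, adjusted p = 0.72), while IL-1_1 averaged 14.30 ± 0.20 (SD, n = 4). IL-1_4 was lower than IL-1_1 (log2 difference -2.95, limma, adjusted p = 0.0028). A second probe set of LOC543955 changed by -0.03 (interval -0.18 to 0.12) against M82. LOC543758 was higher in IL-1_4 by 0.94 ± 0.27 (limma, adjusted p = 0.344) and by 0.60 in its second probe set, LOC543515 changed by -0.45 ± 0.13 (0.304), and the inositol monophosphatase IMP2 changed by 0.24 ± 0.08 (0.764).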

How the data were processed

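The authors deposited a table of log2 expression values with a column for each array, and these values were used without further normalization. They were made with affy, per the submitters' processing notes; neither its version nor its background, normalization and summarization settings are known from the sources used. The log base was inferred as 2 from the range of the values (3.31 to 14.75). Of 10209 probe sets, 108 array controls were left out. Symbols came from the platform annotation of 2007.

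One mean per group was fitted over all 17 arrays with limma 3.58.1 (R 4.3.3), with 13 residual degrees of freedom, two-sided moderated tests and Benjamini-Hochberg adjustment over 10101 probe sets at a false discovery rate of 0.05. Errors are standard errors of the fit unless marked SD. The fit was tested on simulated data.

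Named are all called probe sets with a symbol, the 6 largest called rises and 10 largest called falls whose arrays do not overlap, the called members of each list or else the member with the smallest p, and the 8 symbols not called with the smallest p. Families, probe sets sharing a number and probe sets at the threshold were added after values were seen. The members and lists were chosen with earlier results of these data known. Lists were described by counts and medians and not tested. The number of arrays limits precision.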

Additional observations from a re-analysis of the deposited data

Results flagged for a closer look

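Among 46 probe sets named in the text, the M82 arrays were searched for a single array far from the other 5, and 3 were found; chance gives about 1 in 20. LesAffx.51285.1.S1_at was 6.395 in M82 replicate 5, where the next array was at 5.731, and this rise in IL-1_4 was called with and without that array. TAPG4, an abscission polygalacturonase, was 4.269 in M82 replicate 6 with the next array at 4.037, both at the dim end of the array. CAB4, a chlorophyll-binding protein, was 10.17 in M82 replicate 1 with the next array at 12.32, and the IL-1_4 arrays read 13.03, 13.11 and 12.97.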

How the results depend on the processing

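Of the 65 calls in IL-1_4 against M82, 44 were kept in each of the alternatives that tested them against no change (26 in all), and 21 were lost in at least 1. The test against a log2 change of 0.5, which asks for more, kept 36 of the 65. The calls of MTS1, opr2, RAN2A and the 8 unnamed probe sets among the 10 largest falls were kept in all of these, and so was ER24 where it was tested, since leaving out the dimmest 25% of probe sets removes it. The count was 104 with the main axis of within-group variation as covariate. Rises numbered 28 with that covariate, 25 with 1 weight per group, 5 without the dimmest 25% of probe sets and 6 against a log2 change of 0.5, where falls numbered 30. Leaving out 1 array gave 48 to 70 calls, 7 to 15 rises and 40 to 57 falls; rises were fewest without IL-1_4 replicate 2 (7) and replicate 3 (8). With a replicate block 54 were called, 50 of them among the 65, and the same-numbered arrays of IL-1_4 and M82 had residual correlations of 0.19, 0.20 and -0.07. Since they did not all exceed 0.1, and the labels tie no number to a plant or day, the numbers were not taken as pairs; a partial pairing is not excluded by these 3 values. Against IL-1_1 the count of 1776 was 3117 with 1 weight per group, 783 with the covariate, 950 without M82 replicate 5 and IL-1_4 replicate 1, whose 3-prime and 5-prime controls differed most, 134 against a log2 change of 0.5, and 606 to 2497 with 1 array left out (2497 without M82 replicate 1; 909 and 956 without IL-1_1 replicates 1 and 4; 736, 668 and 606 without IL-1_4 replicates 1, 2 and 3). Against IL-2_3 the count of 156 was 300, 237 and 75 with the weights, the covariate and the log2 change of 0.5, and 111 to 182 with 1 array left out. Among named genes not called in the comparison, limma called twi1 with 1 weight per group (adjusted p = 0.0483), with the covariate (0.00217) and without M82 replicate 1 (0.0225), TDR4 with the covariate (0.0329), LOC543892 with the covariate (0.0493), LOC543515 with the weights (0.0484), and gMDH in 6 settings (0.00949 to 0.0479). The change of TAPG4 turned to -0.016 without IL-1_4 replicate 2. The cause of these shifts was not tested.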
